A study of Homo sapiens with 12 samples.

Results

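Vancomycin-treated HK-2 cells were compared with control HK-2 cells given H2O across the whole transcriptome. The comparison used the 3 vancomycin and the 3 control samples of a series of 12 RNA-seq samples, chosen by their labels alone. HK-2 is an immortalized human proximal tubule cell line, and the series used it to look for genes shared by several kinds of drug-induced acute kidney injury. The vancomycin group received 4 mM vancomycin for 48 h, and the control group received H2O. The remaining 6 samples, treated with 75 mg I/mL iohexol or 5 μM cisplatin for 48 h, entered only where the drugs were set beside each other. All groups share the same cell line in culture, without the tissue around a tubule, and each drug was sequenced at a single dose and time. The labels do not say whether the 3 samples of a group came from separate cultures, so p-values measure the spread between these samples, which may be technical.

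The 3 control libraries held between 14235479 and 16589507 counts and the 3 vancomycin libraries between 16738188 and 18177109. At this depth 3 counts, taken as the limit of detection, amounted to between 0.165 and 0.211 CPM (the usual count scaled by library size) in these libraries, a limit that covers counting error only. Of the 58735 genes in the table, 15819 had enough counts to be tested. Of 27 markers of the proximal tubule, 16 were tested, and their summed level lay between 1643 and 1699 CPM in controls and between 1740 and 1936 CPM with vancomycin. The organic anion transporter gene SLC22A6 and the lactate transporter gene SLC5A12 had no count in any of the 6 samples, and SLC22A2, SLC22A8 and SLC3A1 stayed under 3 counts, so several defining transporters of the tubule were missing in both groups. The tubular transcription factor PAX8 was measured at 312, 351 and 388 CPM in controls and at 394, 332 and 394 CPM with vancomycin, and did not pass the test (log2 fold change 0.09, adjusted p = 0.428). Markers of distal tubule, endothelium and leukocytes each summed to at most 16.1 CPM in every sample. In bulk RNA, fewer cells of a kind and less RNA per cell cannot be told apart.

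Vancomycin is a glycopeptide antibiotic that kidney tubule cells take up by endocytosis and that gathers in lysosomes, the acidic organelles that break down endocytosed and autophagic cargo. Oxidative stress in tubule cells is a known feature of its toxicity. Cells answer oxidative stress largely through the transcription factor NRF2, and lysosomal stress through the factors TFEB, TFE3 and MITF, which bind E-box sequences before lysosomal genes.

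Against the control group, 4596 genes rose with vancomycin (29.1% of those tested) and 4563 fell (28.8%) at an adjusted p under 0.05 in edgeR's quasi-likelihood test. Differentially expressed genes (DEGs) are those that also changed more than 2-fold, that is by more than 1 on the log2 scale. There were 1713 up-regulated DEGs (10.8%) and 1210 down-regulated DEGs (7.65%), and the up-regulated ones reached further. A log2 fold change beyond 3 was reached by 151 up-regulated and 41 down-regulated DEGs. The median log2 fold change over all tested genes was -0.01, so the lists below can be read against a centre near 0. For 31.7% of the tested genes all 3 vancomycin samples lay above all 3 controls, and for 31.6% all lay below.

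The 15 most significant genes on the up-regulated side included the heme oxygenase gene HMOX1, the lipid transport gene APOE, the collagenase gene MMP1, the matrilysin gene MMP7, the complement protease genes C1S and C1R, and the lysosomal glycoprotein gene GPNMB. The 15 on the down-regulated side included the matricellular genes THBS1, CTGF and CYR61, the transforming growth factor gene TGFB2, the tight junction gene CLDN16 and the heparan sulfate proteoglycan gene SDC2. PLA1A, which encodes a phospholipase specific for phosphatidylserine, was measured at 2.48, 3.31 and 3.15 CPM in controls and at 60.4, 65.1 and 63.4 CPM with vancomycin. The groups were far apart and PLA1A rose by 4.39 on the log2 scale (SE 0.14, adjusted p = 1.09e-17). G0S2, an inhibitor of the main triglyceride lipase, went from 15.8, 21.9 and 21.4 CPM to 281, 390 and 329 CPM (log2 fold change 4.08). The zinc finger gene ZBED2 showed the largest loss among well-expressed genes, from 44.3, 43.9 and 39.0 CPM to 0.81, 0.978 and 0.508 CPM (log2 fold change -5.79, SE 0.18, adjusted p = 1.09e-17). SLCO2A1, the prostaglandin transporter gene, fell from 237, 264 and 265 CPM to 24.9, 23.2 and 25.2 CPM. PEG10, an imprinted gene derived from a retrotransposon, fell from 786, 732 and 713 CPM to 84.6, 72.6 and 76.4 CPM. The growth factor co-receptor gene GFRA1 fell from 500, 478 and 466 CPM to 68.8, 61.5 and 65.8 CPM. In these 6 genes no vancomycin sample overlapped a control.

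**Figure D1:**
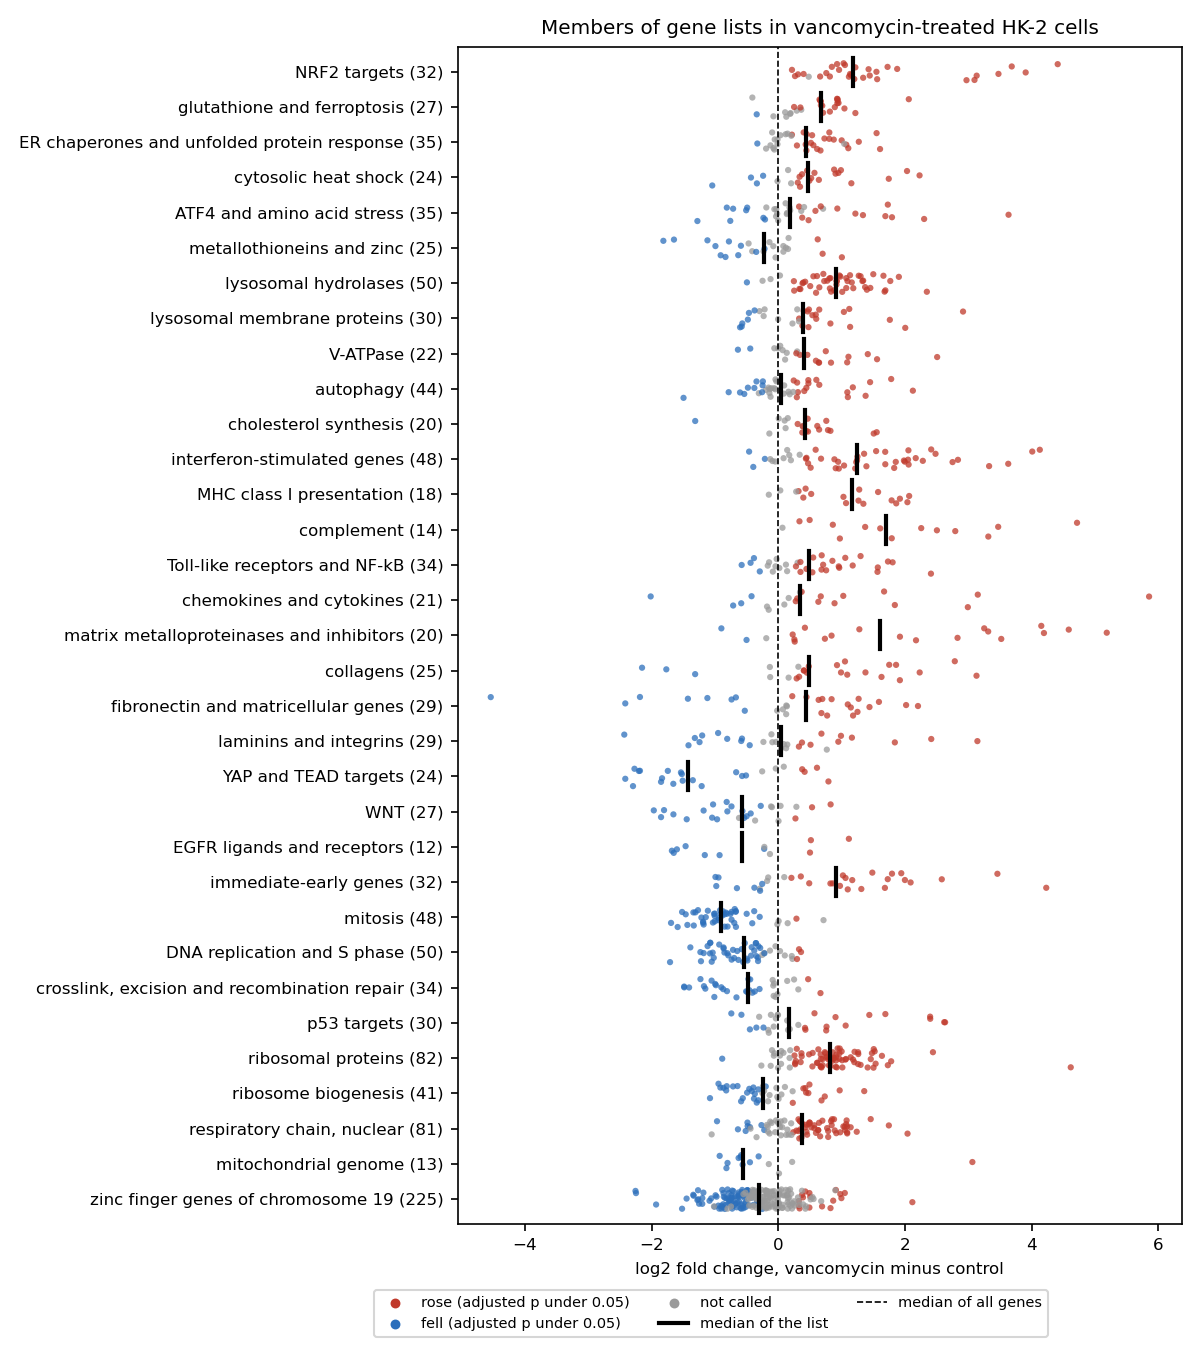
Log2 fold change of vancomycin over control (horizontal axis) for the tested members of gene lists (vertical axis, number of tested members in brackets); each point is a gene, red where it rose, blue where it fell and grey where it did not pass an adjusted p of 0.05, the black bar is the list's median and the dashed line the median of all tested genes. NRF2 targets, interferon-stimulated genes and complement lie to the right of 0 with medians of 1.17, 1.24 and 1.70. The list of YAP and TEAD targets, which also holds pathway components, and mitosis genes lie to the left with medians of -1.43 and -0.90.

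NRF2 targets rose almost as a whole. Of 34 listed genes, 32 were tested, 31 rose, none fell and 21 were up-regulated DEGs, with a median log2 fold change of 1.17. Together they held 0.619% ± 0.00707 (SD, n = 3) of all counts in controls and 1.5% ± 0.0454 (SD, n = 3) with vancomycin. The abundant ferritin gene FTL, described below with its shared sequence, makes up a large part of this share. All 3 vancomycin samples lay above all controls in this share (exact permutation test, two-sided p = 0.1, the smallest that 3 against 3 samples can give). HMOX1 (chr22:35380361-35394214), which breaks heme down to iron, carbon monoxide and biliverdin, was measured at 45.2, 53.5 and 54.3 CPM in controls and at 510, 596 and 597 CPM with vancomycin. BLVRB, the biliverdin reductase B gene, rose from 5.30, 7.68 and 6.42 CPM to 49.2, 58.8 and 58.9 CPM (log2 fold change 3.10, SE 0.14, adjusted p = 5.41e-15). OSGIN1, an oxidative stress induced growth inhibitor, rose from 4.68, 5.32 and 5.50 CPM to 38.4, 41.6 and 41.8 CPM. NQO1, the quinone reductase used as the standard readout of NRF2, rose from 97.4, 86.1 and 81.8 CPM to 247, 269 and 259 CPM (log2 fold change 1.55, SE 0.09, adjusted p = 8.12e-13). The aldo-keto reductase gene AKR1C3 rose from 3.24, 3.31 and 3.40 CPM to 38.5, 46.9 and 42.8 CPM. In each of these genes the groups were separate. NFE2L2, the gene of NRF2 itself, rose by 0.31 on the log2 scale (SE 0.10, adjusted p = 0.0117), with 1 control at 114 CPM inside the vancomycin range of 113 to 134 CPM. KEAP1, which holds NRF2 in check, rose by 0.26 (adjusted p = 0.0272). In SRXN1, the sulfiredoxin gene, which rose by 3.13, 84.8% of the 31-base sequences also occur in other annotated genes, so that its reads are uncertain.

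NRF2 targets that supply reducing power or build glutathione also rose. The thioredoxin reductase gene TXNRD1 rose from 615, 590 and 566 CPM to 1306, 1309 and 1263 CPM (log2 fold change 1.13, SE 0.08, adjusted p = 2.94e-11). In the pentose phosphate pathway, TKT rose by 1.56 and PGD by 0.84, and the malic enzyme gene ME1 rose by 0.96. The subunits of the enzyme that limits glutathione synthesis, GCLM and GCLC, rose by 0.93 and 0.81, and the cystine transporter gene SLC7A11 rose by 1.22. In the wider list of glutathione and ferroptosis genes, 18 of 27 rose and 1 fell (median 0.67), and GPX4, which reduces lipid peroxides, rose from 268, 288 and 274 CPM to 478, 554 and 508 CPM. Ferritin, which stores iron, belongs to the lists of NRF2 targets and of iron and heme handling. Its light chain gene FTL rose from 1549, 1436 and 1408 CPM to 5167, 5675 and 5274 CPM (log2 fold change 1.88, SE 0.08, adjusted p = 4.69e-15). In FTL 32.4% and in the heavy chain gene FTH1 46.7% of the 31-base sequences also occur in other genes, among them ferritin pseudogenes. Of the 26 tested genes of iron and heme handling, 10 rose and 5 fell. The heme transporter gene SLC48A1 fell from 40.3, 60.4 and 56.4 CPM to 15.2, 15.8 and 18.4 CPM, and the iron exporter gene SLC40A1 rose from 2.27, 2.36 and 2.16 CPM to 4.92, 4.65 and 5.99 CPM.

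The letters of the antioxidant response element to which NRF2 binds, searched as TGACNNNGC on both strands, were in the promoters of 8 of the 23 NRF2 targets with a promoter in the RefSeq table of GRCh38.p14 (34.8%), against 16.1% of 27305 genes. The median log2 fold change was 0.94 with and 1.55 without the letters. The windows of 2 targets are shown with the match in capitals, from the plus strand at chr12:104215655-104215713 for TXNRD1 and at chr1:225825251-225825309 for EPHX1, a gene for an epoxide hydrolase that rose by 1.11. The NRF2 list was drawn up from genes with this element, and the interferon list below from known interferon targets. Higher shares of these elements were therefore fixed in advance. In any list, the share of promoters with the letters describes its members, not an effect of vancomycin. The 27305 genes are all those with a promoter, tested or not. Here and below a match is a description of letters, not of a bound site.
TXNRD1: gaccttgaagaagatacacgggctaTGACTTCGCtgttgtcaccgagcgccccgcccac
EPHX1: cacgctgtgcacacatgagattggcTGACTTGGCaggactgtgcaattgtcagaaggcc

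Metallothioneins, small zinc and copper binding proteins, moved against the NRF2 targets. Of 25 tested genes of metallothioneins and zinc handling, 3 rose and 11 fell (median -0.23). MT2A, the most widely expressed metallothionein, fell from 1086, 1014 and 857 CPM to 450, 430 and 481 CPM (log2 fold change -1.12, SE 0.09, adjusted p = 3.47e-10). MT1E fell from 207, 208 and 170 CPM to 68.7, 57.4 and 60.6 CPM, and MT1G from 21.6, 20.9 and 14.5 CPM to 7.17, 4.46 and 4.52 CPM. No vancomycin sample reached a control in these 3 genes. The metallothionein genes resemble each other, and 17.9% of the 31-base sequences of MT1E and 26.9% of those of MT1G also occur in other genes.

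Chaperone genes of the cytosol and of the endoplasmic reticulum (ER) rose. In the cytosolic heat shock list 17 of 24 genes rose and 4 fell (median 0.47), and in the list of ER chaperones and the unfolded protein response 21 of 35 rose and 1 fell (median 0.44). Outside the list, HSPA6, a strictly inducible HSP70, rose from 0.757, 0.413 and 0.803 CPM to 17.9, 31.9 and 30.4 CPM (log2 fold change 5.34, SE 0.26, adjusted p = 3.28e-14). The inducible members HSPA1A and HSPA1B rose by 2.03 and 2.23. These genes resemble each other, and 56.9% of the 31-base sequences of HSPA6, 72.2% of HSPA1A and 74.2% of HSPA1B also occur in other genes. The constitutive member HSPA8 rose by 0.31, from 1325, 1205 and 1131 CPM to 1504, 1534 and 1488 CPM. HSPB8, which directs misfolded proteins to autophagy, rose from 51.6, 50.7 and 47.2 CPM to 156, 172 and 172 CPM. In the ER, the main chaperone gene HSPA5 rose from 957, 914 and 849 CPM to 1171, 1332 and 1203 CPM (log2 fold change 0.45). The calreticulin gene CALR rose from 1035, 1125 and 1085 CPM to 1646, 1881 and 1845 CPM, and the trophic chaperone gene MANF from 19.1, 18.8 and 19.3 CPM to 51.4, 58.2 and 57.7 CPM. HERPUD1, a gene of ER-associated degradation, was the member that fell, by 0.33. Subunits of the chaperonin CCT, which folds actin and tubulin, did not share the rise, since 0 of 8 rose and 4 fell. Proteasome subunits rose in 21 of 32 cases and fell in 3 (median 0.34).

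The ER stress response element was searched on both strands as CCAAT and CCACG with 9 bases between them, and was in the promoters of 8 of 32 ER stress genes (25%), against 0.0916% of 27305 genes. The match is in capitals and reads on the minus strand of each window, at chr19:12938359-12938427 for CALR and at chr22:49918529-49918597 for CRELD2, a gene for a secreted ER stress protein that rose by 1.00.
CALR: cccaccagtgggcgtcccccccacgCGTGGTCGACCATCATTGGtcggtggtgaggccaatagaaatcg
CRELD2: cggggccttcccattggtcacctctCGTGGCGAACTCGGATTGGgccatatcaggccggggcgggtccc

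Of 35 tested amino acid stress genes controlled by ATF4, 13 rose (37.1%) and 8 fell (22.9%), with 7 up-regulated DEGs and 1 down-regulated DEG. Over all genes 29.1% rose and 28.8% fell. The stress cofactor gene NUPR1 rose from 0.964, 1.54 and 1.17 CPM to 13.3, 19.4 and 13.6 CPM (log2 fold change 3.63, SE 0.22, adjusted p = 1.4e-12). PPP1R15A, which reverses the phosphorylation of the translation factor eIF2, rose from 38.9, 53.7 and 50.9 CPM to 215, 245 and 248 CPM. DDIT3, the gene of the stress factor CHOP, rose from 11.6, 11.6 and 12.3 CPM to 27.7, 34.4 and 27.7 CPM. The serine synthesis gene PSAT1 went the other way, from 82.2, 82.3 and 79.7 CPM to 35.6, 35.2 and 29.9 CPM (log2 fold change -1.28, SE 0.10, adjusted p = 1.32e-10). None of the 20 aminoacyl-tRNA synthetase genes was a DEG, with 5 that rose and 8 that fell.

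Lysosomal hydrolases, the enzymes inside the lysosome, rose in 46 of 50 tested genes, and 21 of them were up-regulated DEGs (median log2 fold change 0.92). Their share of all counts went from 0.527% ± 0.0198 (SD, n = 3) in controls to 1.09% ± 0.0492 (SD, n = 3) with vancomycin. The rise covered proteases, glycosidases, lipid hydrolases and phosphatases. Among the proteases, cathepsin L (CTSL) rose from 51.8, 54.1 and 54.7 CPM to 177, 217 and 206 CPM (log2 fold change 1.90, SE 0.10, adjusted p = 4.64e-14). Cathepsin B (CTSB) rose from 320, 378 and 366 CPM to 1052, 1136 and 1174 CPM. The protective protein gene CTSA, which stabilizes galactosidase and neuraminidase, rose from 139, 167 and 171 CPM to 498, 499 and 530 CPM. The groups were separate in all of these. The acid phosphatase gene ACP5 rose from 38.7, 41.7 and 43.5 CPM to 194, 220 and 216 CPM (log2 fold change 2.34, SE 0.09, adjusted p = 9.27e-16). PSAP, the precursor of the saposins that present lipids to these enzymes, rose from 1617, 1659 and 1638 CPM to 3795, 4200 and 4088 CPM. GAA, which degrades glycogen, rose by 1.07. NAAA, which hydrolyses fatty acid ethanolamides, was the hydrolase that fell (log2 fold change -0.50, adjusted p = 0.0022). Cathepsin D (CTSD) rose by 1.77, but 55.5% of its 31-base sequences also occur in other annotated genes.

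The membrane of the lysosome and its proton pump moved less evenly than the enzymes inside. Of 30 lysosomal membrane proteins, 17 rose and 6 fell (median 0.39), and of 22 subunits of the V-ATPase, 13 rose and 2 fell (median 0.40). GPNMB, a membrane glycoprotein made under lysosomal stress, rose from 29.9, 23.5 and 25.9 CPM to 194, 202 and 202 CPM (log2 fold change 2.92, SE 0.10, adjusted p = 7.23e-17). The tetraspanin gene CD63 rose from 221, 338 and 333 CPM to 1063, 1295 and 1218 CPM. The structural gene LAMP1 rose by 0.46, whereas LAMP2 had a log2 fold change of 0.00 (adjusted p = 0.968). In the proton pump, ATP6V0B of the membrane sector rose from 59.0, 71.2 and 63.6 CPM to 159, 184 and 173 CPM. The catalytic subunit gene ATP6V1A had a log2 fold change of 0.07 and did not pass the test (adjusted p = 0.548).

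Among the regulators at the lysosome, 16 of 25 rose and 5 fell, and the 3 MiT/TFE factors did not move alike. TFE3 rose from 77.7, 88.2 and 86.2 CPM to 130, 136 and 145 CPM, and TFEB from 5.37, 4.49 and 5.56 CPM to 7.00, 8.87 and 7.40 CPM. MITF fell from 142, 129 and 129 CPM to 30.6, 26.8 and 28 CPM (log2 fold change -2.23, SE 0.10, adjusted p = 3.99e-15). FNIP2, which acts with folliculin on the mTORC1 pathway, rose from 76.7, 85.2 and 78.3 CPM to 255, 208 and 222 CPM.

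The E-box of these factors, CACGTG, was in the promoters of 11 of 33 lysosomal hydrolase genes (33.3%), against 8.78% of 27305 genes. The full lysosomal element, which is that E-box with GT before it and AC after it, was in 3 of 33 (9.09%), against 0.421%. The match is in capitals in the windows of GAA (plus strand, chr17:80101478-80101537) and GALNS (minus strand, chr16:88857089-88857148), which hold the full element, and of CTSD (minus strand, chr11:1763944-1763999), which holds the E-box. GALNS, a sulfatase gene, rose by 0.98.
GAA: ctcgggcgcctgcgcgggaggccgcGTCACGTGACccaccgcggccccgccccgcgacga
GALNS: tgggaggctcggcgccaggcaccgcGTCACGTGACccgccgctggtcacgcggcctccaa
CTSD: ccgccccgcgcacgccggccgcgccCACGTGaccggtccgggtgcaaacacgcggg

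Autophagy genes, in contrast, were spread around the centre, with 17 of 44 that rose, 10 that fell and a median of 0.04. The cargo receptor gene SQSTM1 rose from 193, 233 and 232 CPM to 947, 967 and 955 CPM (log2 fold change 2.12, SE 0.09, adjusted p = 3.35e-15). The ATG8 family genes GABARAPL1 and MAP1LC3B, whose products coat the autophagosome, rose by 1.45 and 1.09. The initiating kinase gene ULK2 fell from 18.4, 15.9 and 18.2 CPM to 5.84, 5.81 and 6.89 CPM. Genes that sort cargo to endosomes and lysosomes rose in 11 of 25 cases and fell in 5.

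In cholesterol synthesis 13 of 20 genes rose and 1 fell (median 0.41). INSIG1, which retains the sterol sensor in the ER, rose from 120, 117 and 110 CPM to 251, 287 and 250 CPM. APOE, which carries lipids out of cells, rose from 43.8, 56.6 and 55.8 CPM to 626, 764 and 705 CPM (log2 fold change 3.74, SE 0.11, adjusted p = 4.35e-18). The cholesterol ester hydrolase gene NCEH1 fell from 553, 504 and 488 CPM to 133, 131 and 117 CPM. The sterol exporter gene ABCA1 fell by 0.43. The sterol regulatory letters TCACNCCAC were in 0 of the 15 cholesterol synthesis promoters searched, against 1.39% of 27305 genes. At that share 0 matches in 15 promoters would be usual, and the search covered a single form of the letters. It therefore cannot tell whether these genes hold such an element.

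**Figure D2:**
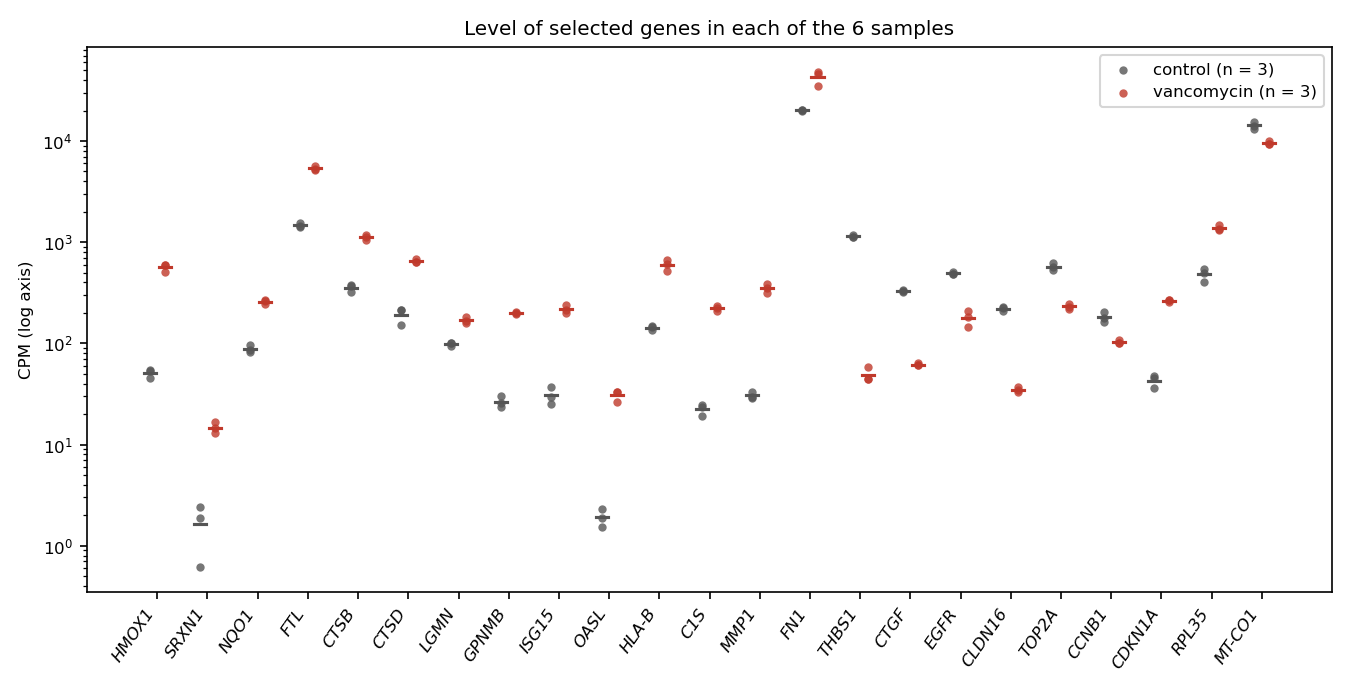
CPM on a log axis (vertical) for named genes (horizontal) in each of the 3 control and 3 vancomycin samples; points are samples and bars are group means. The vancomycin points lie above the controls for genes such as HMOX1, CTSD and ISG15 and below them for genes such as THBS1, EGFR and TOP2A, with no overlap in these 6 genes.

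Interferon-stimulated genes rose in 37 of 48 tested cases and fell in 3 (median 1.24), and 27 were up-regulated DEGs. Type I interferons are secreted antiviral cytokines whose signal runs through factors that include STAT2 and IRF9. The genes of the interferons on the list, IFNB1 and IFNL1, had too few counts to be tested. ISG20, an exonuclease gene, rose from 1.03, 1.06 and 1.24 CPM to 17.4, 21.2 and 20.1 CPM (log2 fold change 4.13, SE 0.19, adjusted p = 1.09e-14). OASL, a relative of the antiviral oligoadenylate synthetases, rose from 1.86, 2.30 and 1.54 CPM to 26.1, 33.0 and 33.3 CPM. The ubiquitin-like gene ISG15 rose from 25.1, 37.2 and 29.5 CPM to 200, 241 and 215 CPM (log2 fold change 2.83, SE 0.12, adjusted p = 1.98e-15). The groups did not overlap in these genes. Of the signal transducers, STAT2 rose by 1.21 and IRF9 by 1.25. The share of the whole list in all counts went from 0.353% ± 0.00662 (SD, n = 3) to 0.436% ± 0.00532 (SD, n = 3).

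The interferon-stimulated response element, searched on both strands as GAAA repeated after 2 further bases, was in the promoters of 28 of 40 listed genes (70.0%), against 4.38% of 27305 genes. The median log2 fold change was 1.37 with and 0.92 without the letters. The match is in capitals in the windows of ISG15 (plus strand, chr1:1013359-1013418), ISG20 (plus strand, chr15:88638922-88638981) and IFI6 (minus strand, chr1:27672314-27672373), a gene for a mitochondrial survival protein that rose by 2.75.
ISG15: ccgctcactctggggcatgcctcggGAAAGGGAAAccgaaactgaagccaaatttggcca
ISG20: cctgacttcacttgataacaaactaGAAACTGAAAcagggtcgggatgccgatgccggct
IFI6: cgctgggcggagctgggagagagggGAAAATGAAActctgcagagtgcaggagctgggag

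Genes of antigen presentation by MHC class I rose in 15 of 18 cases and none fell (median 1.17). B2M, the invariant chain, rose from 371, 333 and 313 CPM to 1152, 1458 and 1235 CPM (log2 fold change 1.92). The heavy chain gene HLA-B rose from 136, 147 and 146 CPM to 516, 665 and 614 CPM (log2 fold change 2.06, SE 0.10, adjusted p = 1.78e-14). The peptide transporter gene TAP1 rose by 1.07 and the class I transactivator gene NLRC5 by 1.34. HLA heavy chain genes share sequence, with 14% of the 31-base sequences of HLA-B and 18.7% of HLA-C found in other genes, so that the split of reads between them is uncertain.

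Complement genes rose in 13 of 14 tested cases and none fell (median 1.70). The components of the classical pathway's first protease, C1R and C1S, rose together. C1S was measured at 19.1, 24.6 and 23.5 CPM in controls and at 210, 226 and 235 CPM with vancomycin (log2 fold change 3.31, SE 0.11, adjusted p = 1.32e-17). C1R rose from 10.3, 11.2 and 13.3 CPM to 122, 125 and 139 CPM, with 21.5% of its 31-base sequences shared with other genes. C3, the central component, rose from 302, 324 and 340 CPM to 1009, 886 and 1048 CPM (log2 fold change 1.61, SE 0.09, adjusted p = 2.79e-13). CD55, which protects cells from complement, rose from 40.7, 38.7 and 34.5 CPM to 128, 146 and 119 CPM. All 3 vancomycin samples lay above all 3 controls in these genes. In CFB, factor B of the alternative pathway, 62.7% of the 31-base sequences also occur in other genes, and its rise of 4.71 is uncertain for that reason.

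Among genes of Toll-like receptors and NF-kB signalling, 21 of 34 rose and 4 fell (median 0.49). The signalling kinase gene IRAK2 rose from 32.1, 33.1 and 33.8 CPM to 88.5, 97.2 and 107 CPM. NFKBIE, an NF-kB inhibitor induced by the pathway itself, rose from 19.6, 26.7 and 24.5 CPM to 70.5, 83.1 and 81.7 CPM. The adhesion molecule gene ICAM1 rose from 191, 248 and 243 CPM to 545, 527 and 605 CPM. Of the 35 chemokine and cytokine genes listed, 21 were tested, 12 rose and 4 fell. IL11, a cytokine of epithelial injury, rose from 13.4, 18.3 and 18.2 CPM to 132, 157 and 153 CPM (log2 fold change 3.15, SE 0.12, adjusted p = 2.74e-16). CSF1, the growth factor of macrophages, rose from 53.8, 64.3 and 64.7 CPM to 223, 212 and 220 CPM. The chemokine gene CCL5 had 0, 2 and 0 counts in controls and 41, 55 and 50 counts with vancomycin. It passed the filter through the vancomycin samples alone, so its direction was fixed in advance. TNF fell from 4.27, 6.91 and 6.79 CPM to 1.85, 1.41 and 1.19 CPM (log2 fold change -2.02, SE 0.26, adjusted p = 5.93e-07). Leukocyte markers summed to between 13.1 and 16.1 CPM in controls and between 12.6 and 15.8 CPM with vancomycin, and CD3E and MS4A1 had no count in any of the 6 samples.

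Matrix metalloproteinases, which degrade extracellular matrix, and their inhibitors rose in 17 of 20 tested cases and fell in 2 (median 1.60). MMP1, an interstitial collagenase, rose from 29.6, 33.3 and 29.1 CPM to 312, 387 and 356 CPM (log2 fold change 3.52, SE 0.11, adjusted p = 4.35e-18). MMP7, an epithelial matrilysin, rose from 38.7, 45.7 and 41.9 CPM to 271, 326 and 301 CPM. MMP13, another collagenase, rose from 0.964, 0.532 and 0.309 CPM to 12.6, 14.5 and 15.8 CPM. The groups were separate in all of these, but MMP13 passed the filter through the vancomycin samples, so its rise was partly fixed in advance. MMP14, which activates other members at the cell surface, rose from 195, 235 and 242 CPM to 773, 883 and 884 CPM (log2 fold change 1.92). The inhibitor gene TIMP1 rose from 148, 147 and 147 CPM to 312, 391 and 371 CPM. Of 16 genes of plasminogen activation and coagulation, 9 rose and 5 fell. PLAUR, the urokinase receptor that focuses plasmin at the cell surface, rose from 42.0, 48.0 and 47.0 CPM to 215, 279 and 259 CPM. F3, the tissue factor that starts coagulation, fell from 131, 121 and 124 CPM to 37.0, 39.0 and 36.4 CPM.

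Collagens rose in 18 of 25 tested cases and fell in 3 (median 0.48). COL5A1, which nucleates collagen fibrils, rose from 81.9, 107 and 98.4 CPM to 391, 324 and 372 CPM (log2 fold change 1.92). COL12A1, a fibril-associated collagen, fell from 61.0, 60.0 and 56.6 CPM to 18, 15.5 and 18.5 CPM. Fibronectin and matricellular genes were split, with 16 of 29 that rose and 8 that fell. FN1 (chr2:215360440-215436172), the fibronectin gene, held 2.07% ± 0.0493 (SD, n = 3) of all counts in controls and 4.20% ± 0.657 (SD, n = 3) with vancomycin. Its share was 4.70%, 3.45% and 4.45% in the 3 vancomycin samples, above every control, and FN1 rose by 1.09 (SE 0.09, adjusted p = 4.45e-10). The tenascin gene TNC rose by 2.02, and the proteoglycan gene BGN from 7.23, 8.56 and 8.46 CPM to 35.6, 37.7 and 38.7 CPM. THBS1 (chr15:39581079-39599466), a matricellular activator of latent TGF-beta, fell by 4.54, further than any other member of the matrix lists. Markers of fibroblasts and pericytes moved with the matrix genes, since 6 of the 7 tested rose and their sum lay between 138 and 154 CPM in controls and between 296 and 334 CPM with vancomycin. LUM contributed most to that sum, COL1A2 and PDGFRA had no count in any of the 6 samples, and the part of such cells in these results was not tested.

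Of 29 laminin and integrin genes, 10 rose and 10 fell (34.5% each), near the 29.1% that rose and 28.8% that fell over all genes. ITGA2, a collagen receptor subunit, rose from 5.92, 7.09 and 6.18 CPM to 36.5, 32.2 and 33.8 CPM, and ITGB8, a subunit that activates TGF-beta, fell from 508, 435 and 448 CPM to 101, 78.4 and 78.1 CPM. Of 35 genes of TGF-beta ligands, receptors and SMADs, 10 rose and 12 fell, also near the shares over all genes. TGFB2 fell from 302, 256 and 270 CPM to 58.3, 56.2 and 56.9 CPM (log2 fold change -2.27), with 24.5% of its 31-base sequences shared with other genes. ID1, a target of the BMP branch, fell from 246, 238 and 241 CPM to 83.3, 82.3 and 74.1 CPM.

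YAP and TEAD act together in transcription and report cell spreading and tension. The list of their targets also holds components of the pathway itself. Of its 24 tested genes, 17 fell and 4 rose (median -1.43), and 14 were down-regulated DEGs against a background of 7.65%. The factor genes TEAD2 and TEAD4 were among those that rose. CTGF fell from 340, 321 and 327 CPM to 63.5, 60.8 and 60.6 CPM (log2 fold change -2.42, SE 0.09, adjusted p = 1.69e-16). CYR61 fell from 1311, 1480 and 1495 CPM to 309, 303 and 330 CPM. ANKRD1 fell from 107, 103 and 99.3 CPM to 20.8, 25.4 and 21.1 CPM. The receptor tyrosine kinase gene AXL fell from 505, 565 and 568 CPM to 162, 142 and 155 CPM. No vancomycin sample reached a control in these target genes. Of the factors themselves, the YAP paralog gene WWTR1 fell from 699, 649 and 608 CPM to 251, 239 and 196 CPM and TEAD1 by 1.21 on the log2 scale. YAP1 was measured at 119, 116 and 116 CPM in controls and at 133, 117 and 122 CPM with vancomycin and did not pass the test (adjusted p = 0.419). CTGF and CYR61 are also members of the matricellular list, and F3, TGFB2 and DKK1 of this list are described with other groups.

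In the EGFR system 7 of 12 genes fell and 3 rose (median -0.58). EGFR fell from 484, 486 and 504 CPM to 208, 145 and 181 CPM (log2 fold change -1.46, SE 0.10, adjusted p = 2.24e-11). Its ligand genes AREG, TGFA and EREG fell by 1.68, 1.65 and 1.16. In the WNT pathway 17 of 27 genes fell and 3 rose (median -0.57). DKK1, a secreted WNT inhibitor, fell from 56.9, 49.0 and 48.7 CPM to 15.5, 14.7 and 12.5 CPM, and the co-receptor gene LRP6 fell by 1.18. Outside these lists FGFR2, the receptor of epithelial fibroblast growth factors, fell from 39.4, 42.4 and 45.8 CPM to 5.03, 3.55 and 4.80 CPM.

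Tight junction genes fell in 9 of 19 cases and rose in 4 (median -0.37). CLDN16, a claudin of paracellular magnesium transport, fell from 229, 224 and 210 CPM to 34.2, 37.2 and 33.4 CPM (log2 fold change -2.66, SE 0.09, adjusted p = 8.28e-17). CLDN1 fell from 1434, 1297 and 1252 CPM to 584, 556 and 529 CPM, and the scaffold gene TJP1 fell by 1.25. CLDN4, a sealing claudin, was raised from 41.5, 54.5 and 55.2 CPM to 191, 226 and 224 CPM. Cadherins fell in 8 of 14 cases and rose in 3, and Notch pathway genes fell in 8 of 16 and rose in 3.

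Immediate-early genes, which answer stimuli within minutes, were higher in the samples taken at 48 h. Of 32 tested, 21 rose and 7 fell (median 0.91), and 15 were up-regulated DEGs. FOS rose from 1.86, 1.54 and 2.04 CPM to 30.2, 40.2 and 31.6 CPM (log2 fold change 4.23, SE 0.17, adjusted p = 1.2e-15). FOSB rose from 3.72, 4.31 and 3.46 CPM to 36.6, 42.3 and 47.8 CPM, and the small MAF gene MAFF from 33.7, 37.6 and 31.9 CPM to 131, 153 and 155 CPM. MYC fell from 346, 354 and 347 CPM to 176, 181 and 187 CPM (log2 fold change -0.95). Of 17 genes of ERK feedback, 5 rose (29.4%) and 7 fell (41.2%), against 29.1% and 28.8% over all genes.

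Genes of cell division fell broadly and by moderate amounts. In mitosis 43 of 48 genes fell, 1 rose and 20 were down-regulated DEGs (median -0.90). In DNA replication and S phase 39 of 50 fell, 3 rose and 12 were down-regulated DEGs (median -0.54). The proliferation antigen gene MKI67 fell from 630, 582 and 568 CPM to 313, 206 and 262 CPM (log2 fold change -1.19, SE 0.11, adjusted p = 2.29e-09). TOP2A, the topoisomerase that untangles chromosomes, fell from 627, 567 and 529 CPM to 248, 227 and 219 CPM (log2 fold change -1.31, SE 0.09, adjusted p = 1.25e-11). The mitotic kinase gene CDK1 fell from 211, 196 and 181 CPM to 88.9, 99.7 and 76.9 CPM. Groups were separate in each of these. ANLN, a scaffold of the cytokinetic ring, fell from 574, 475 and 458 CPM to 171, 153 and 141 CPM. In S phase, POLA1 of the primase complex fell from 67.3, 65.3 and 57.9 CPM to 34.9, 27.9 and 27.3 CPM, whereas the helicase subunit gene MCM2 had a log2 fold change of -0.05 (adjusted p = 0.687). MCM6 of the same helicase fell by 0.65.

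The letters of the cell cycle homology region, TTTGAA, were on either strand in the promoters of 30 of 42 mitosis genes (71.4%), against 18.2% of 27305 genes. The letters TTTGGCGC of an E2F site were in 9 of 41 replication genes (22.0%), against 0.795%, and the median log2 fold change was -1.02 with and -0.37 without them. The match is in capitals in the windows of TOP2A (minus strand, chr17:40418060-40418115) and KIF23 (plus strand, chr15:69414269-69414324), a kinesin gene that fell by 1.46, for the first kind, and of POLA1 (plus strand, chrX:24693756-24693813, read on the minus strand) and MCM6 (minus strand, chr2:135876563-135876620) for the E2F site.
TOP2A: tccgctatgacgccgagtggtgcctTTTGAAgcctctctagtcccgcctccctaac
KIF23: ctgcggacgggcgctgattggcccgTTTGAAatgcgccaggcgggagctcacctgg
POLA1: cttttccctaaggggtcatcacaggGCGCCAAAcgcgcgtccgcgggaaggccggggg
MCM6: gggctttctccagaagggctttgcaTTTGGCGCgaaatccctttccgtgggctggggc

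In a list of cyclin-dependent kinase inhibitors, the RB family, D cyclins and their kinases, 5 of 16 rose and 7 fell. Among the inhibitors, CDKN1C rose by 1.17 and CDKN2A by 1.16, while CDKN2C fell by 0.37. The RB family genes RB1, RBL1 and RBL2, which hold back S phase genes, fell by 0.60, 0.99 and 0.62. CDKN1A, the p21 inhibitor of cyclin-dependent kinases, rose from 36.2, 45.2 and 47.4 CPM to 255, 265 and 271 CPM (log2 fold change 2.62, SE 0.10, adjusted p = 5.07e-16). CCND1, the cyclin that opens the G1 phase, fell from 273, 283 and 272 CPM to 82.3, 79.6 and 75.4 CPM, and its partner gene CDK6 from 540, 488 and 483 CPM to 178, 138 and 144 CPM. Genes of crosslink, excision and recombination repair fell in 22 of 34 cases and rose in 2 (median -0.47). BRCA1 and BRCA2, which act in homologous recombination, fell by 1.00 and 1.15, and the Fanconi anemia gene FANCD2 by 1.01.

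Targets of p53 were mixed. Of 30 tested, 13 rose and 5 fell, and 7 were up-regulated DEGs. Besides CDKN1A, the AKT inhibitor gene PHLDA3 rose from 24.9, 36.1 and 37.2 CPM to 157, 185 and 177 CPM, and the stress cytokine gene GDF15 from 95.7, 93.0 and 104 CPM to 294, 323 and 326 CPM. MDM2, the p53 ubiquitin ligase, had a log2 fold change of -0.15 (adjusted p = 0.211), and the death receptor gene FAS fell by 0.58. In the BCL2 and caspase list 20 of 35 rose and 5 fell (median 0.31). The genes of 2 anti-apoptotic members fell, BCL2 from 46.8, 52.9 and 50.9 CPM to 15.6, 13.4 and 12.7 CPM and BCL2L1 from 155, 195 and 191 CPM to 67.2, 69.6 and 71.2 CPM. Pro-apoptotic BH3-only genes rose, PMAIP1 from 60.8, 49.4 and 55.7 CPM to 233, 278 and 220 CPM and HRK from 4.68, 5.32 and 4.75 CPM to 25.4, 22.3 and 21.7 CPM.

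Glycolysis genes rose in 12 of 21 cases and fell in 4 (median 0.35), and hypoxia response genes in 13 of 22 with 1 that fell (median 0.63). GAPDH rose from 2517, 2695 and 2632 CPM to 4935, 4812 and 4960 CPM (log2 fold change 0.91), with 35.2% of its 31-base sequences shared with other genes. TPI1, which interconverts triose phosphates, rose from 570, 765 and 742 CPM to 1502, 1657 and 1595 CPM. The glucose transporter gene SLC2A3 rose from 26.4, 24 and 28 CPM to 91.9, 97.5 and 93.0 CPM. SLC2A1, the other main transporter of such cells, was measured at 650, 736 and 745 CPM in controls and 781, 765 and 852 CPM with vancomycin and did not pass the test (adjusted p = 0.0918). The carbonic anhydrase gene CA9, a standard readout of hypoxia, rose from 1.45, 1.36 and 2.04 CPM to 8.74, 9.48 and 8.92 CPM. VEGFA, the vascular growth factor, rose from 92.5, 99.6 and 106 CPM to 229, 246 and 253 CPM.

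Ribosomal protein genes rose in 68 of 82 tested cases, and 1 fell (median 0.81). Their share of all counts was 3.52% ± 0.117 (SD, n = 3) in controls and 5.77% ± 0.44 (SD, n = 3) with vancomycin. RPL35 of the large subunit rose from 404, 545 and 496 CPM to 1307, 1463 and 1336 CPM (log2 fold change 1.51). RPL41, which encodes the shortest of these proteins, rose from 243, 236 and 227 CPM to 778, 877 and 771 CPM. RPL26 was the member that fell, from 41.4, 41.0 and 41.2 CPM to 15.9, 29.1 and 22.0 CPM (log2 fold change -0.89, SE 0.15, adjusted p = 1.43e-05). In RPL35, RPL41 and RPL26, 22.9%, 36.6% and 32.9% of the 31-base sequences also occur in other genes, so that their reads are uncertain. Pseudogenes of ribosomal proteins, to which reads of the parent genes can be assigned, rose in 49 of 81 cases and fell in 8 (median 0.86). Genes of ribosome biogenesis went the other way, since 10 of 41 rose and 20 fell (median -0.25). Translation factors stayed near the centre, with 13 of 44 that rose and 10 that fell.

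The genes of the respiratory chain differed by the genome that carries them. Of the 81 tested nuclear genes, 49 rose and 8 fell (median 0.38). Of the 13 protein genes of the mitochondrial genome, 1 rose and 9 fell (median -0.56). The mitochondrial protein genes held 4.58% ± 0.276 (SD, n = 3) of all counts in controls and 2.97% ± 0.0998 (SD, n = 3) with vancomycin, with no overlap. Among nuclear genes COX5B of complex IV rose from 40.6, 62.1 and 55.9 CPM to 169, 202 and 161 CPM (log2 fold change 1.74). Among mitochondrial genes MT-CO1 of the same complex fell from 15395, 14200 and 13258 CPM to 9272, 9900 and 9340 CPM (log2 fold change -0.59), and MT-ATP6 from 3733, 3521 and 3359 CPM to 1832, 1937 and 1812 CPM. The exception was MT-ATP8, a short gene that overlaps MT-ATP6, which rose from 5.58, 8.56 and 9.69 CPM to 75.0, 69.3 and 56.2 CPM (log2 fold change 3.06). Since both genes lie on a shared transcript and 22.2% of the exonic bases of MT-ATP8 lie in another gene, its count depends on how overlapping reads were assigned. In MT-CO1 67.0% and in MT-ATP6 64.9% of the 31-base sequences also occur in other annotated genes. The ribosomal RNA genes of mitochondria went against the protein genes, and MT-RNR1 rose from 619, 561 and 497 CPM to 1466, 1593 and 1401 CPM. Genes of mitochondrial ribosomal proteins rose in 36 of 78 cases and fell in 17.

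The libraries were prepared from poly(A) RNA, but held some counts of genes whose transcripts are usually not polyadenylated. Clustered histone genes, whose messages mostly end in a stem-loop, held 0.00422% ± 0.000412 (SD, n = 3) of all counts in controls and 0.0162% ± 0.00127 (SD, n = 3) with vancomycin. Of 71 listed, 22 were tested, 18 rose and none fell. A gene could pass the filter through the vancomycin samples alone, and such a gene has its higher counts there by construction. With at least 10 counts required in every sample, 11 were tested and 10 rose. HIST1H1C, a linker histone gene, rose from 2.48, 3.31 and 2.84 CPM to 12.9, 17.3 and 12.9 CPM (log2 fold change 2.31, SE 0.18, adjusted p = 1.64e-10). Small RNA genes went from 0.0111% ± 0.0011 (SD, n = 3) to 0.0252% ± 0.000428 (SD, n = 3), while of the 23 tested 7 rose and 6 fell, close to the shares over all genes. The signal recognition particle RNA gene RN7SL3 had 0, 1 and 0 counts in controls and 69, 56 and 77 counts with vancomycin, but 74.1% of its 31-base sequences also occur in other genes. The vault RNA gene VTRNA1-2 had no count in the controls and 32, 21 and 23 counts with vancomycin.

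**Figure D3:**
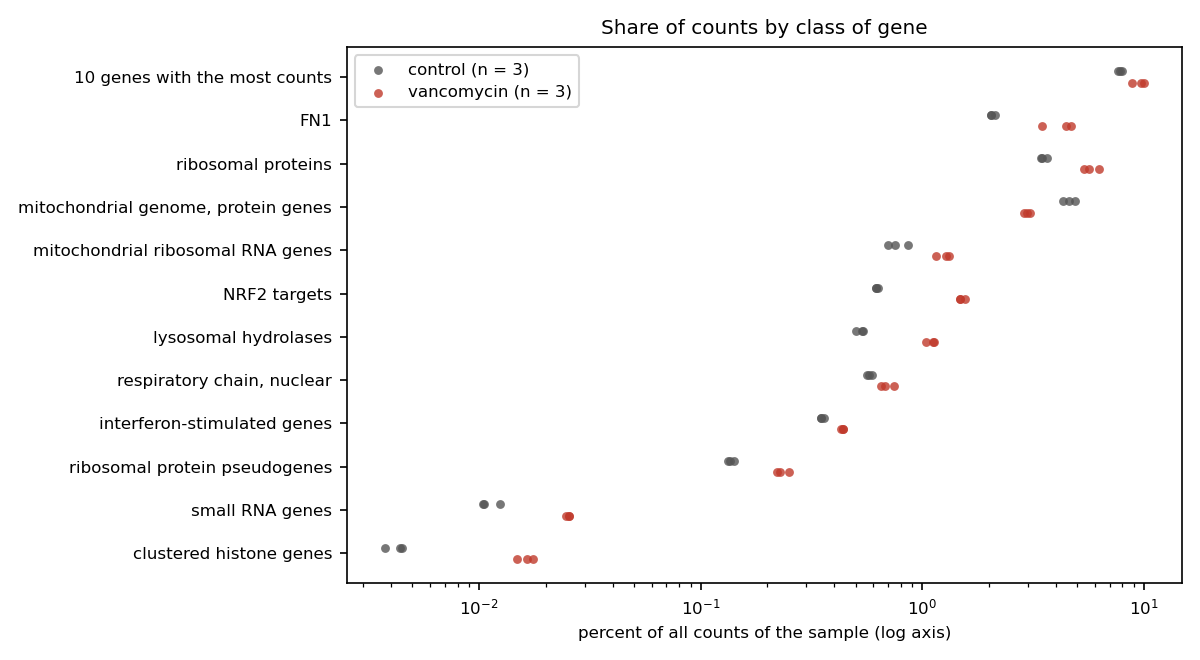
Percent of all counts (horizontal, log axis) held by classes of genes (vertical) in each of the 3 control and 3 vancomycin samples; points are samples. Protein genes of the mitochondrial genome lie lower with vancomycin (2.97% against 4.58%), and ribosomal proteins, NRF2 targets and lysosomal hydrolases lie higher (5.77%, 1.5% and 1.09% against 3.52%, 0.619% and 0.527%).

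The direction of change moved with the exonic length of the gene. That length counts the bases of all annotated exons of a gene, so it can exceed the length of any single transcript. Among the eighth of the 13174 tested protein-coding genes with the fewest exonic bases (207 to 2413), 52.1% rose and 14.5% fell, and the median log2 fold change was 0.40. In the eighth with the most (9929 to 118976 bases), 19.6% rose and 45.1% fell, with a median of -0.22. Ribosomal protein genes had a median of 3055 exonic bases and nuclear respiratory chain genes of 2475, which fall in the second eighth, where the median of all genes was 0.15. Lysosomal hydrolases with 4461 bases, NRF2 targets with 3610 and mitosis genes with 3947 lie in or next to the middle of the range, where the medians of the eighths lay between -0.01 and 0.07. The same range ran from 0.18 to -0.37 with cisplatin and from -0.03 to -0.02 with iohexol, against the same controls. The part of exonic length in the results of each list was not tested, and the length of the transcripts present was not measured.

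**Figure D4:**
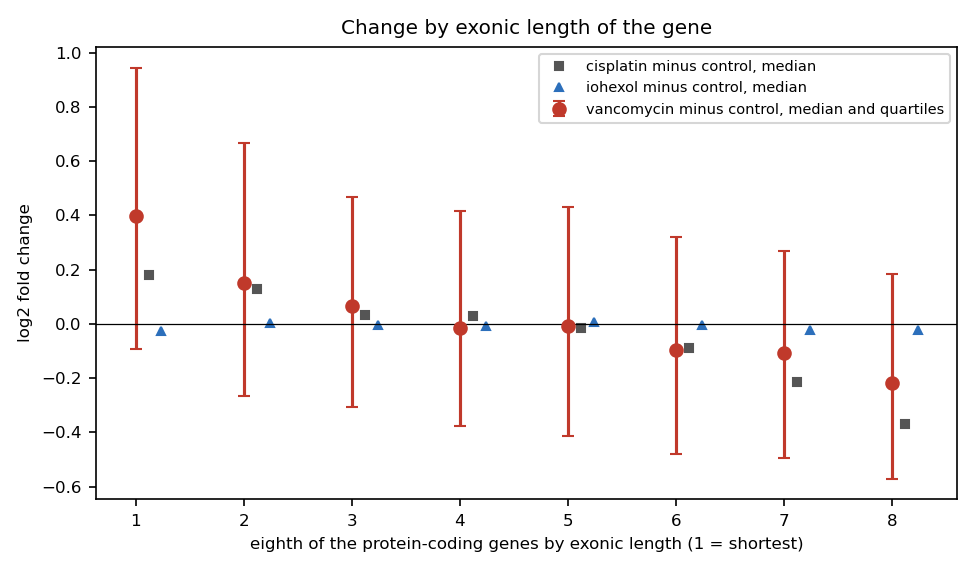
Median log2 fold change of vancomycin over control (vertical, with bars from the lower to the upper quartile) for the tested protein-coding genes split into eighths by exonic length (horizontal, shortest on the left), with the medians of cisplatin and of iohexol over control for the same genes. The vancomycin median goes from 0.40 in the shortest eighth to -0.22 in the longest.

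Zinc finger genes of chromosome 19, many of them related transcriptional repressors that lie in clusters, fell in 88 of 225 tested cases and rose in 17 (median -0.31). ZNF121 fell from 73.2, 62.7 and 66.9 CPM to 28.3, 28.1 and 23.5 CPM (log2 fold change -1.34, SE 0.11, adjusted p = 2.24e-10), and ZNF146 from 166, 152 and 139 CPM to 72.2, 78.6 and 64.5 CPM. In ZNF428, which rose, the vancomycin samples lay at 25.4, 31.1 and 25.1 CPM against 9.43, 16.2 and 15.6 CPM in controls. Genes that span over 500 kb of genome fell in 85 of 189 cases and rose in 32, with a median of -0.28 where cisplatin gave -1.90 and iohexol 0.00 over the same controls.

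Markers of tubular injury rose in 12 of 18 tested cases and fell in 5 (median 0.58). LCN2, which encodes the urinary injury marker NGAL, rose from 2.00, 2.19 and 2.72 CPM to 20.5, 24.3 and 22.8 CPM (log2 fold change 3.28). SPP1, the osteopontin gene, rose from 1181, 1058 and 1028 CPM to 3051, 3635 and 3131 CPM. HAVCR1, the gene of the marker KIM-1, fell from 186, 175 and 175 CPM to 86.7, 64.7 and 81.2 CPM. Of the 4 hub genes that the study chose on these samples, so that their direction here is not independent evidence, 3 were tested. TLR4, a receptor of bacterial and damage signals, was measured at 0.482, 0.295 and 0.494 CPM in controls and at 1.68, 0.978 and 1.13 CPM with vancomycin (log2 fold change 1.57, SE 0.45, adjusted p = 0.00458). AOC3, an amine oxidase of vascular adhesion, rose from 0.413, 0.413 and 0.679 CPM to 2.43, 3.61 and 3.28 CPM. In controls TLR4 and AOC3 lay close to the limit of detection. Both passed the filter through the vancomycin samples, so their rise was partly fixed in advance. TNFAIP6, a secreted hyaluronan-binding protein, fell from 12.7, 12.5 and 9.82 CPM to 0.868, 0.673 and 0.508 CPM (log2 fold change -4.08, SE 0.24, adjusted p = 8.24e-13). IRF4 had too few counts in these 6 samples to be tested.

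Vancomycin was then set beside cisplatin and iohexol in a fit of all 12 samples, in which 17073 genes were tested. It was higher than cisplatin for 34.7% and lower for 30.0% of genes, and higher than iohexol for 29.0% and lower for 27.6%. Scaling by library size alone moved the median of all genes by -0.33 against cisplatin and by -0.21 against iohexol. With that scaling the share of higher genes among those called went from 53.6% to 33.6% against cisplatin and from 51.3% to 34.5% against iohexol, so each count below is given under both scalings. Across all genes 20.6% were higher and 16.9% lower with vancomycin than with both other drugs, and the comparisons share the vancomycin samples. With library size alone 2144 of the 17073 genes were higher and 4863 lower than with both. NRF2 targets were higher than with both in 26 of 32 cases and lower in 0, or in 21 and 0 with library size alone. For lysosomal hydrolases the counts were 38 higher and 1 lower of 51, or 26 and 2. Interferon-stimulated genes gave 35 higher and 0 lower of 48, or 26 and 1, and complement genes 12 and 0 of 15, or 10 and 0. Ribosomal proteins gave 72 higher and 1 lower of 82, or 62 and 1. Mitosis genes were lower in 37 of 48 cases and higher in 1, or in 42 and 0. Genes of the list of YAP and TEAD targets and pathway components were lower in 16 of 24 and higher in 2, or in 16 and 1.

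The counts of other lists moved with the scaling, as did those over all genes. Lysosomal membrane proteins were higher than with both drugs in 6 of 30 cases and lower in 2, or in 5 and 6 with library size alone. V-ATPase subunits gave 9 higher and 4 lower, or 4 and 6, and autophagy genes 9 higher and 4 lower, or 5 and 17. Targets of p53 gave 10 higher and 5 lower of 30, or 8 and 8. Against the same controls, the median log2 fold change of NRF2 targets was -0.12 with cisplatin and 0.14 with iohexol, that of lysosomal hydrolases -0.30 and 0.29, and that of interferon-stimulated genes -0.03 and 0.25. The median of the matrix metalloproteinase list was -0.79 with cisplatin and -0.51 with iohexol. That of the list of YAP and TEAD targets and pathway components was -0.29 and -0.19.

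**Figure D5:**
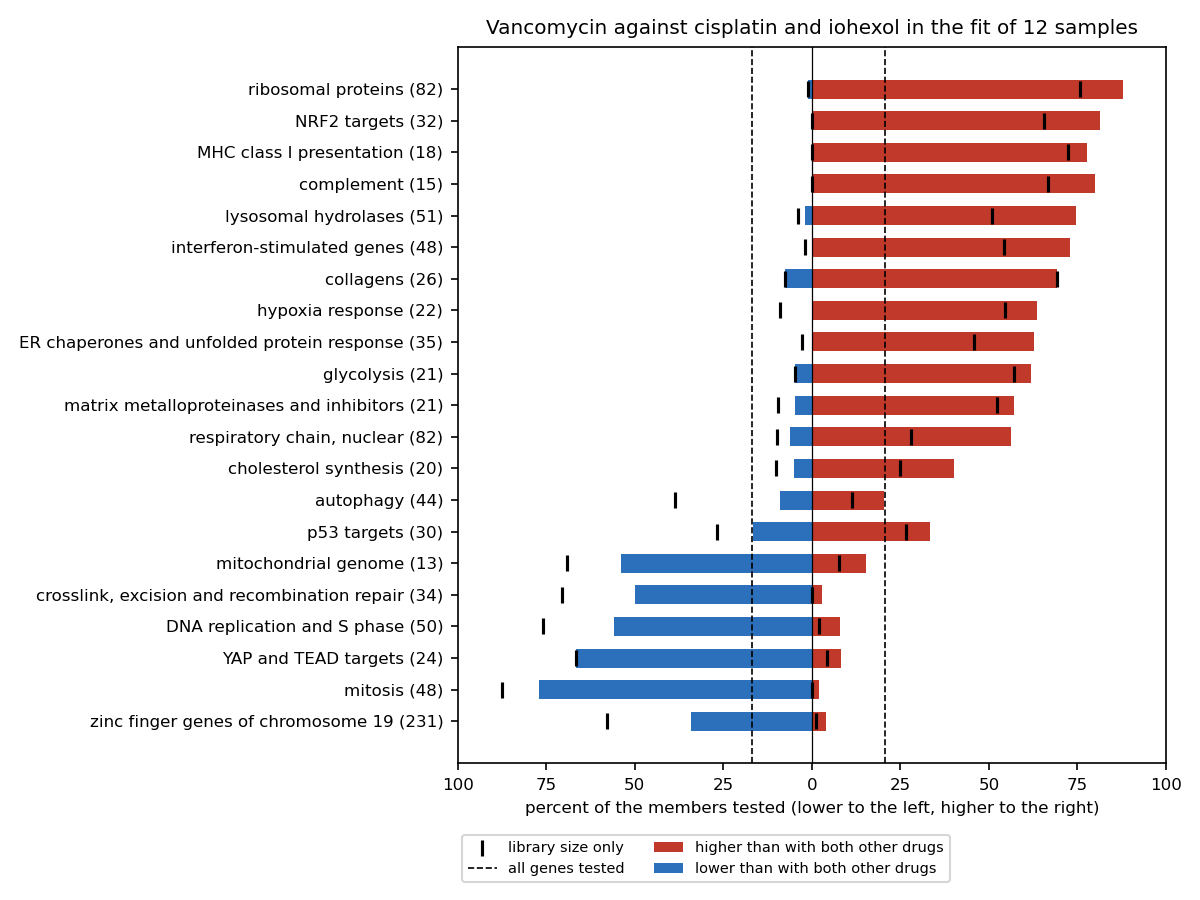
Percent of the tested members of each list (number in brackets) that were higher (red, to the right) or lower (blue, to the left) with vancomycin than with both cisplatin and iohexol in the fit of 12 samples; black ticks give the same with scaling by library size alone and dashed lines the percent over all genes. Ribosomal proteins and NRF2 targets reach furthest to the right and mitosis genes furthest to the left, against 20.6% higher and 16.9% lower over all genes.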

How the data were processed

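RNA of 12 HK-2 samples had been sequenced from poly(A)-selected libraries. The authors deposited whole-number counts per gene, not normalized, for 58735 genes. The submitters' processing notes name CASAVA 1.8, fastp, HISAT2 2.0.5, featureCounts 1.5.0-p3 and DESeq2 1.20.0, and the strand setting and annotation release are not given in the sources used here. Gene coordinates are as deposited, and the exonic lengths in the table equal those of GENCODE release 29 for the 15819 tested genes. Samples were grouped by their labels. The 6 samples were filtered (edgeR 4.0.16, filterByExpr, minimum count 10, minimum total 15), scaled by TMM factors and tested with edgeR's quasi-likelihood test in R 4.3.3, with Benjamini-Hochberg adjustment over all tested genes. CPM are scaled by TMM, and the SE is the log2 fold change divided by the root of the F statistic. The thresholds for DEGs were 0.05 for the adjusted p and 1 for the absolute log2 value. The contrasts between drugs came from a fit of all 12 samples. The fit was tested on simulated data. Alternatives were other scalings, filters and tools (DESeq2 1.42.0, limma 3.58.1), a replicate block and leaving out each sample. Named genes were members of the lists, the 15 DEGs per direction with the smallest p and no overlap of groups, the 15 protein-coding DEGs per direction with the largest change above a mean of 10 CPM, and the hub genes. The members and lists were chosen with earlier results of these data known. Shared sequence was measured as the percent of a gene's 31-base sequences, taken every 5 bases, that also occur in other genes of that annotation. Some genes are not reported here. Promoter sequences are from RefSeq (GRCh38.p14).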

Additional observations from a re-analysis of the deposited data

How the results depend on the processing

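The counts of genes that rose or fell stayed within 1.5 times the reported ones under every alternative. Up- and down-regulated DEGs numbered 1202 and 848 with at least 10 counts in every sample, 1978 and 1398 with at least 1 count, 1499 and 1422 with library size alone, 1646 and 1155 with DESeq2, and 1748 and 1228 with limma's voom. Without 1 replicate at a time, DEGs numbered between 2858 and 3134. Samples with the same replicate number deviated together weakly (correlations of 0.0343 to 0.117, not all over 0.1), so the numbers were not taken as pairs, although 6 of 6 samples correlated best with their own number. With a replicate block there were 1722 up- and 1210 down-regulated DEGs, and 4858 genes rose and 4821 fell. Of 676 named genes, 0 turned direction and 34 lost their call in at least 1 of 17 alternatives, where genes that an alternative left untested count as neither. With 10 counts required in every sample, 10 of 11 tested clustered histone genes rose. The median of small RNA genes, 0.31 as reported, was -0.118 with at least 1 count and ranged from -0.033 to 0.437 without 1 replicate at a time, the lowest without vancomycin replicate 3. Between drugs, with library size alone, 7810 genes were lower than with cisplatin, 2144 higher and 4863 lower than with both drugs. Without the 10 genes with the most counts, the differences in share (vancomycin minus control, in percentage points) were -0.818 for mitochondrial protein genes (-1.62 with them), 0.0978 for mitochondrial ribosomal RNA genes (0.480), 0.0134 for clustered histone genes (0.0120), 0.635 for lysosomal hydrolases (0.565), 0.985 for NRF2 targets (0.880) and 0.0988 for interferon-stimulated genes (0.0827). Apart from the alternatives' own construction, the causes were not tested. Depth limits genes near 3 counts per library, and 3 samples per group limit the estimate of spread.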

Other observations

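Over all tested genes 29.1% rose and 28.8% fell, and list counts near these shares are not read as results about their members. Of 11 ABC pump genes tested, 4 rose (36.4%) and 2 fell (18.2%). ABCG2, an exporter of urate and drugs, rose from 0.207, 1.00 and 0.556 CPM to 4.86, 6.11 and 7.06 CPM. Its control at 0.207 CPM lay at the limit of detection. ABCG2 passed the filter through the vancomycin samples, so its rise was partly fixed in advance. ABCB1, the P-glycoprotein gene, fell from 184, 164 and 169 CPM to 55.9, 54.2 and 59.5 CPM. In the polyamine pathway 4 of 16 genes rose and 6 fell. SAT1, which starts polyamine breakdown, rose from 177, 167 and 161 CPM to 504, 631 and 539 CPM, whereas ODC1, which starts polyamine synthesis, fell by 0.94. Of 16 genes of prostaglandin synthesis and transport, 8 rose and 4 fell. The synthase gene PTGES rose from 58.3, 62.0 and 59.5 CPM to 266, 288 and 282 CPM, and HPGD, which inactivates prostaglandins, fell by 1.60.

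Of 25 genes of ion pumps and transporters, 14 rose and 6 fell (median 0.41), and of 17 genes of endocytosis through megalin and cubilin, 5 rose and 6 fell. In the IGF system 5 of 10 genes rose and 4 fell, with IGFBP6, a binding protein for IGF2, up by 2.54 and the insulin receptor substrate gene IRS2 down (log2 fold change -1.90). Of 20 circadian clock genes, 10 rose and 4 fell. Keratin genes rose in 7 of 10 cases and fell in 2, where KRT10 rose by 1.43 and the log2 fold change of KRT80 was -1.12. Peroxisome genes rose in 3 of 23 cases and fell in 7, with 0 DEGs.

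Genes of the actin cytoskeleton and its regulator SRF rose in 10 of 28 cases and fell in 12, where the tropomyosin gene TPM1 fell from 954, 931 and 935 CPM to 448, 454 and 455 CPM and the myosin light chain gene MYL6 rose from 297, 379 and 332 CPM to 866, 961 and 872 CPM. Tubulin genes rose in 5 of 20 cases and fell in 10. In lipid metabolism, 5 of 13 genes of fatty acid synthesis rose and 4 fell, 10 of 27 genes of fatty acid oxidation rose and 2 fell, and 7 of 19 genes of the TCA cycle rose and 5 fell. The SREBP system gave 6 of 11 that rose and 3 that fell, and sterol export 7 of 12 and 2. Osmolyte genes and aquaporins gave 6 of 13 and 3, AHR and cytochrome P450 genes 6 of 17 and 2, hyaluronan genes 3 of 10 and 3, the secretory pathway 10 of 30 and 7, mitochondrial import 8 of 23 and 4, and snoRNA host genes 11 of 24 and 8.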
